A study of Mus musculus with 18 samples.

Results

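The genes described here are 36 mouse genes of glycolysis and of the response to low oxygen, chosen by name. Earlier results of these data were known when they were chosen. They comprise 2 glucose transporters, 15 enzymes that turn glucose into pyruvate, 2 enzymes that make or degrade fructose-2,6-bisphosphate, 4 genes that act on pyruvate and lactate, 3 genes of oxygen sensing and 10 further genes known to respond to low oxygen. A probe set (the group of probes that reports on a gene) was taken for a member where its deposited gene name was the member's name or an older synonym, such as Pkm2 for Pkm. All 36 were found among the 20792 genes of the larger array type and 35 among the 13231 genes of the smaller one, where no value was found for Pfkfb4.

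RNA of sorted mouse CD4 T cells was measured on 18 Affymetrix arrays in 6 groups. The CD4 cells were enriched with beads and sorted 2 times on green fluorescent protein (GFP), which reports Foxp3, the lineage factor of regulatory T cells; the label Treg stands for Foxp3-positive and Teff for Foxp3-negative cells. DT Treg (titled aTreg) and DT Teff, 5 arrays each, are cells of spleen and lymph nodes from DT-treated Foxp3DTR mice, in which the receptor for diphtheria toxin is expressed under Foxp3 control and the toxin kills cells that express it. Foxp3GFP mice, whose Foxp3-expressing cells carry GFP, gave the other 4 groups of 2 arrays each: Treg and Teff of pooled spleen and lymph node origin (called spleen below) and from tumours titled B16, the name of a transplantable mouse melanoma line. All mice were 6 to 8 weeks old. The labels give neither the dose and timing of DT nor the age of the tumours. Whether each replicate came from its own animal is not stated either, so p-values measure only the spread between these arrays, and the number of arrays limits the precision. Values are log2 expression values in 2 separately normalized tables, and only differences made within a table are set side by side.

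In glycolysis a cell imports glucose, phosphorylates and splits it, and gains ATP and pyruvate, which is reduced to lactate and exported or oxidised in mitochondria. Resting T cells rely mainly on mitochondrial oxidation, whereas activated, dividing T cells raise glucose import and glycolysis. When oxygen is plentiful, prolyl hydroxylases mark the transcription factor HIF-1α for destruction; when oxygen falls, HIF-1α persists, pairs with ARNT and raises transcription of glucose transporters, most glycolytic enzymes and genes such as Bnip3 and Vegfa.

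Some features of the arrays bear on all comparisons. Foxp3 went against the label: it read 9.99 and 9.95 in spleen Treg, but 3.11 to 3.43 in DT Treg and 3.2 to 3.3 in tumour Treg, beside 2.97 to 3.4 on the Teff arrays of all settings. "Treg" therefore stands for the label throughout. Of the 5 Treg markers, Foxp3 included, 4 were higher in Treg in DT mice, 5 in spleen and 4 in the tumour, with Il2ra, a chain of the interleukin-2 receptor, higher by 4.04, 4.64 and 4.25. The 7 T cell markers measured lay above the array median in every group, and 4 of them were higher in tumour Treg than in tumour Teff (median difference 0.36, summed levels 79.8 to 80.8 against 77.2 to 78.4). In the interaction 0 of the 7 passed by limma, and 4 were above 0 at an unadjusted p under 0.05. Their part in the members' differences was not tested. Xist was high (at least 10.57) and Ddx3y low (at most 2.81) on the spleen arrays. The reverse held on the tumour arrays (at most 2.62 and at least 9.91). On the DT arrays, in the other table, Xist read at most 2.31 and Ddx3y at least 7.24. Tissue and whatever goes with these sex-linked transcripts thus cannot be told apart in any comparison between tumour and spleen. DT Treg array 4 and DT Teff arrays 4 and 5 correlated less with the other arrays of their groups (mean r 0.9864, 0.9819 and 0.9822) than the other DT arrays (0.9903 to 0.9942). In bulk samples, fewer cells of a type and less RNA per cell cannot be told apart.

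The promoters of these genes are rich in the letters that HIF-1 is known to bind. The members were chosen as genes of glycolysis and of the response to low oxygen, so such an excess is no independent result. Stretches of 8 are printed because their genes carry the results below: Pgk1, Pgam1, Ldha, Slc16a3, Bnip3 and Ddit4 were higher in tumour Treg, P4ha1 was higher and Pdk1 lower in Treg in all 3 settings. Each is the stretch of 60 bases with the most such letters before the most upstream start that RefSeq gives for the gene in build GRCm38.p6, and is written 5′ to 3′ on the strand of the gene. Capitals mark ACGTG or GCGTG on either strand; CACGT and CACGC are these letters read on the opposite strand.
Pgk1, chrX:106186932-106186991, plus strand: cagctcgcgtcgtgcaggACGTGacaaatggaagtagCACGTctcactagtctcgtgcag
Pgam1, chr19:41911743-41911802, plus strand: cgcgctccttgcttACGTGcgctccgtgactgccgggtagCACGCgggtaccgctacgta
Ldha, chr7:46845736-46845795, plus strand: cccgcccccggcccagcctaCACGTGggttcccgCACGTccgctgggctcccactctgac
Slc16a3, chr11:120949007-120949066, plus strand: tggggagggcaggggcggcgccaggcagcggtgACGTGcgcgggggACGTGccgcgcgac
Bnip3, chr7:138909582-138909641, minus strand: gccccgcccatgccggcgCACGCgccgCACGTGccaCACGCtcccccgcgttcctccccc
Ddit4, chr10:59951853-59951912, minus strand: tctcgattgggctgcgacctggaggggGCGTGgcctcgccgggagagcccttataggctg
P4ha1, chr10:59323124-59323183, plus strand: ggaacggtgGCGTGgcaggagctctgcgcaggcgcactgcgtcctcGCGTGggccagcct
Pdk1, chr2:71873119-71873178, plus strand: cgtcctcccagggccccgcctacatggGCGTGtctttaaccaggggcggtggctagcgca

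In windows of 250 bases before to 50 after a start, with both strands searched, ACGTG occurred in 24 of the 33 members that have a window in the RefSeq table (72.7%), against 21.8% of all 27025 genes in that table and 26.3% of the 14524 of them on the larger array type. GCGTG occurred in 22 members (66.7%), against 35.2% and 48.1%. Either was present in 30 members (90.9%), against 46.7% and 59.7%. Neither stood in the windows of Tpi1, Gpi1 and Eno2, which were higher in tumour Treg than in tumour Teff. Tpi1 was higher in Treg in all 3 settings. CACGTG, which contains ACGTG and is also an E-box, occurred in 5 members (15.2%), against 8.09% and 10.3%. The members' windows held more G and C (median 63.0%) than all windows (52.7%) or those of genes on the larger array type (58.3%). A gene counted if any of its windows held the letters. The 33 members had 49 windows, and the 14524 genes on the larger array type had 18200. The part of base composition and of the number of windows in these shares was not tested. The letters are a description, and binding was not measured. GCGTG stands both before P4ha1, higher in Treg, and before Pdk1, lower in Treg.

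The share of members higher in Treg than in Teff exceeded that of all genes in each of the 3 settings, and was highest in the tumour. As the members were chosen with earlier results of these data known, these shares are a description and no independent test. In DT mice 14 of 36 members were higher and 3 lower in Treg (limma, adjusted p under 0.05 over all genes), where 5.96% of all genes were higher and 4.56% lower. In spleen 11 of 35 were higher and 2 lower, where 7.45% of all genes were higher and 6.41% lower. In the tumour 27 of 35 were higher and 1 lower, where 14% of all genes were higher and 11.5% lower. The members' median log2 differences were 0.20, 0.24 and 0.78, against 0.03, 0.00 and 0.01 for all genes.

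Between tissues, 26 of 35 members were higher in tumour Treg than in spleen Treg and 0 lower, where 11.4% of all genes were higher and 12.2% lower; the median difference was 0.96, against -0.03 for all genes. At an unadjusted p under 0.05 limma still had 0 members lower. In Teff 17 members were higher and 1 lower in the tumour, where 7.6% of all genes were higher and 8.2% lower, with a median of 0.33 against -0.04. The interaction, which compares the difference between Treg and Teff in the tumour with that in spleen, was positive and passed for 11 members, and 0 passed below 0 (2 at an unadjusted p under 0.05, Slc2a3 and Hif1a), where 2.83% of all genes passed above 0 and 2.98% below. Its median was 0.48, against 0.01. Tumour Treg had the highest mean of the 4 Foxp3GFP groups for 30 of 35 members, and spleen Teff the lowest for 23, whether or not a test passed. The highest and lowest groups were not counted over all genes.

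**Figure D1:**
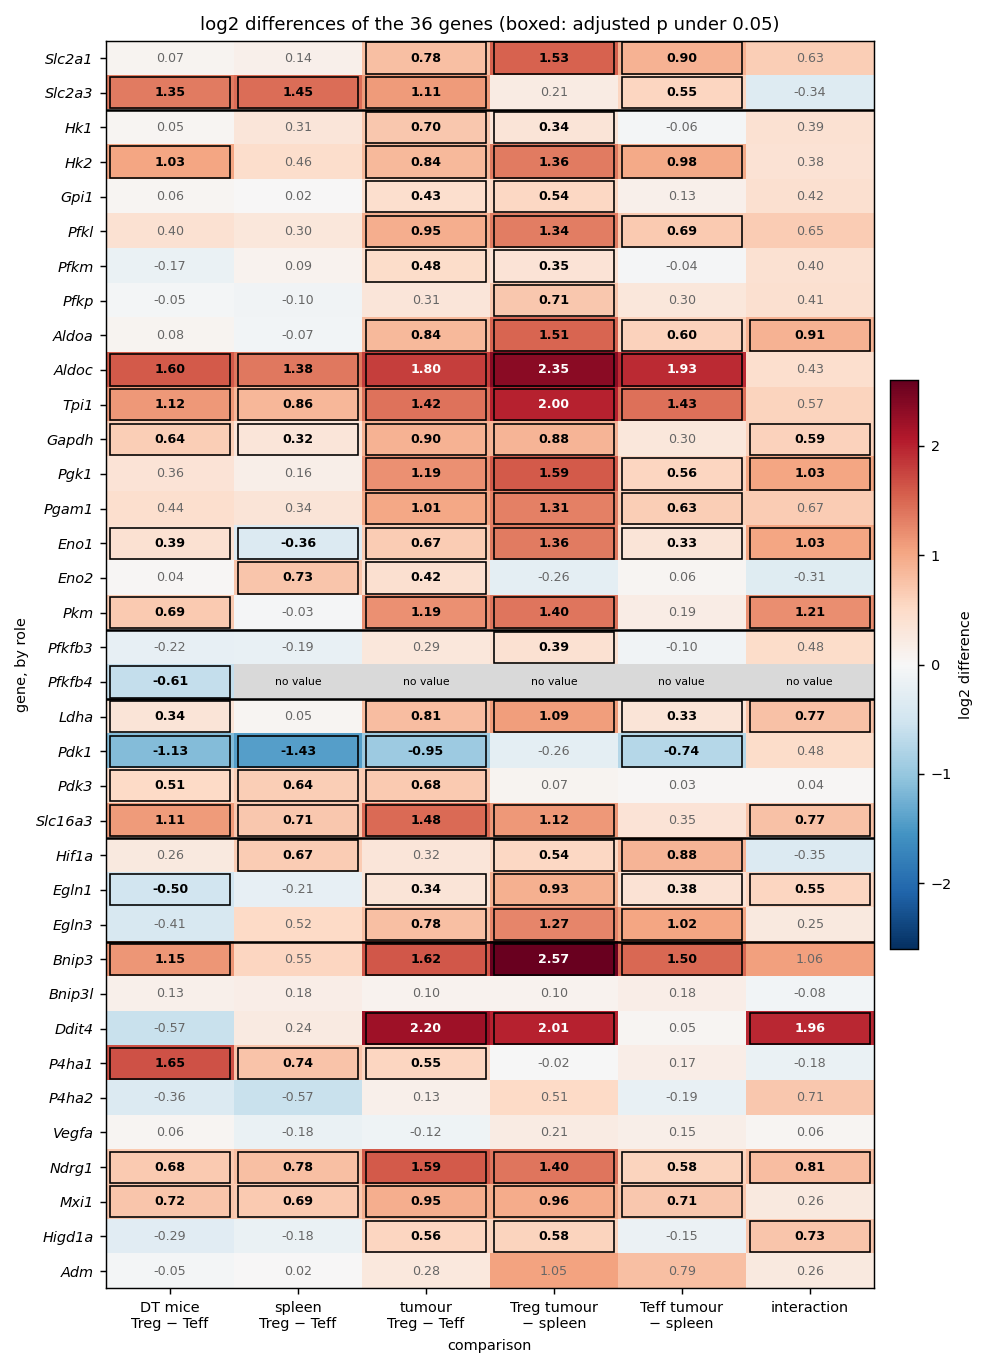
Log2 differences of each of the 36 genes (vertical axis, grouped by role) in the 6 comparisons (horizontal axis), with colour for size and a box where adjusted p is under 0.05. Boxes are most frequent in the comparisons with tumour Treg, and Pdk1 lies below 0 in each of the 5 comparisons of 2 groups.

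The members called in the same direction in DT mice, spleen and tumour were 9 that were higher in Treg (Slc2a3, Aldoc, Tpi1, Gapdh, Pdk3, Slc16a3, P4ha1, Ndrg1 and Mxi1) and 1 that was lower (Pdk1). These 3 comparisons share no array, although spleen and tumour share an estimate of the spread. A further 12 were higher in Treg in the tumour and passed in neither other setting, except that Egln1 was lower in DT Treg: Slc2a1, Hk1, Gpi1, Pfkl, Pfkm, Aldoa, Pgk1, Pgam1, Egln1, Egln3, Ddit4 and Higd1a. Bnip3l, P4ha2, Vegfa and Adm passed in none of the 6 comparisons. How many of all genes share such calls was not counted.

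The glucose transporters differed from each other. Slc2a3 (probe set 1437052_s_at), the high-affinity transporter GLUT3, read 11.16, 11.38, 10.95, 10.96 and 11.26 on the DT Treg arrays and 9.86, 9.92, 9.51, 9.73 and 9.92 on the DT Teff arrays. In Foxp3GFP mice it read 11.14 and 11.19 in spleen Treg, 9.71 and 9.73 in spleen Teff, 11.31 and 11.43 in tumour Treg, and 10.19 and 10.34 in tumour Teff. All Treg arrays lay above all Teff arrays of their setting. The differences were 1.35 (SE 0.121, adjusted p = 1.09e-05) in DT mice, 1.45 (SE 0.0891, adjusted p = 3.46e-05) in spleen and 1.11 (SE 0.0891, adjusted p = 6.59e-05) in the tumour. In the tumour it rose in Teff by 0.55 (adjusted p = 0.0051) and differed by 0.21 in Treg (adjusted p = 0.139).

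Slc2a1 (1434773_a_at), the widely expressed transporter GLUT1, separated the tissues. It read 10.52 and 10.24 in tumour Treg, 9.53 and 9.68 in tumour Teff, 8.84 and 8.86 in spleen Treg, and 8.7 and 8.72 in spleen Teff. Every tumour array lay above every spleen array, with rises of 1.53 in Treg (SE 0.109, adjusted p = 4.13e-05) and 0.90 in Teff (adjusted p = 0.0014). Tumour Treg exceeded tumour Teff by 0.78 (adjusted p = 0.00124), while the difference in spleen was 0.14 (adjusted p = 0.479). In DT mice the arrays overlapped, from 8.58 to 9.43 in Treg and from 8.39 to 9.61 in Teff (difference 0.07, 95% interval -0.39 to 0.52). The interactions of Slc2a1 (0.63, adjusted p = 0.0551) and Slc2a3 (-0.34, adjusted p = 0.182) missed the threshold.

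**Figure D2:**
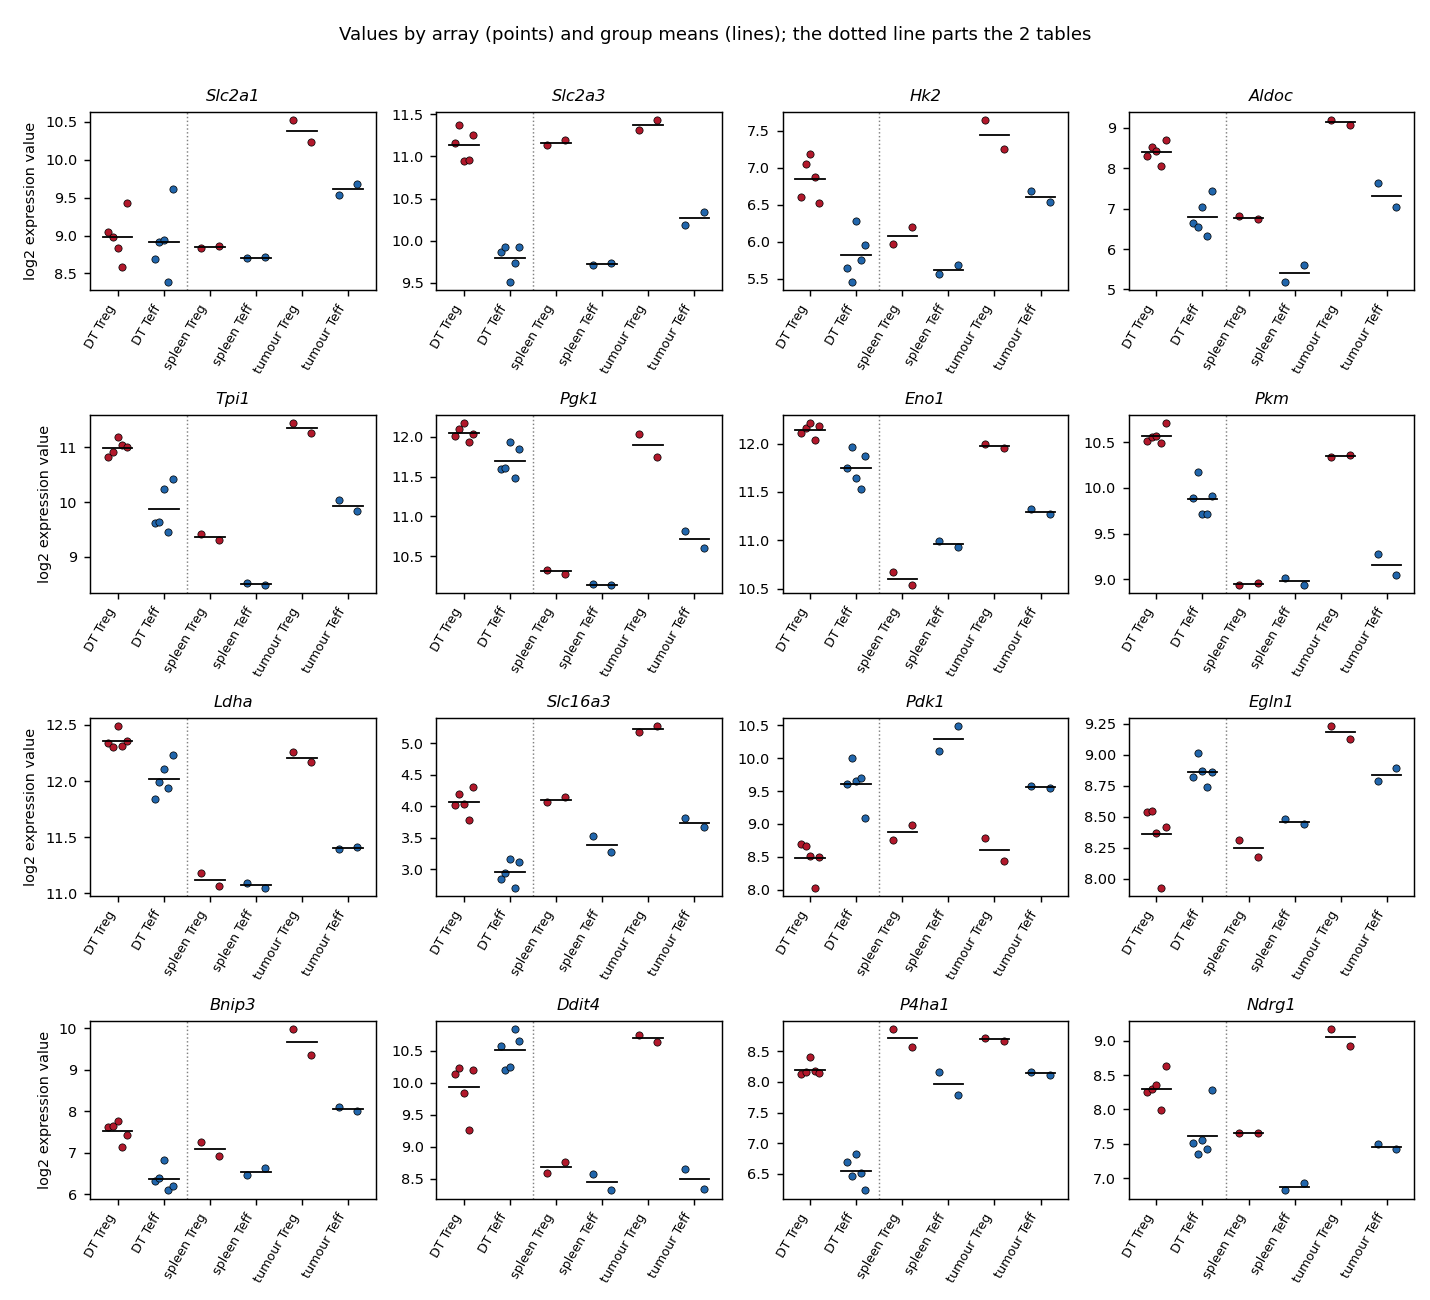
Log2 expression values of 16 members (1 panel each) on every array, by group, with points for arrays and lines for group means; the dotted line parts the separately normalized tables, across which levels are not comparable. Slc2a3 is higher on all Treg than on all Teff arrays of each setting, Slc2a1 is highest in tumour Treg, and Pdk1 is lower on all Treg arrays.

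Of the 15 glycolytic enzymes, 6 were higher in Treg in DT mice, 4 higher and 1 lower in spleen, and 14 higher in the tumour. From spleen to tumour 14 rose in Treg and 8 in Teff. Hexokinase, which traps glucose in the cell, was represented by Hk1 and Hk2. Hk2 (1422612_at), the inducible form, read 6.6, 7.05, 7.18, 6.88 and 6.52 in DT Treg and 5.64, 5.46, 6.28, 5.75 and 5.95 in DT Teff, without overlap (difference 1.03, SE 0.171, adjusted p = 0.00143). It read 7.64 and 7.25 in tumour Treg, 6.68 and 6.54 in tumour Teff, 5.97 and 6.2 in spleen Treg, and 5.56 and 5.69 in spleen Teff. Tumour arrays thus lay above spleen arrays in both cell types, by 1.36 in Treg and 0.98 in Teff (adjusted p = 0.000324 and 0.00314), and tumour Treg exceeded tumour Teff by 0.84 (adjusted p = 0.0033). Hk1 (1437974_a_at), the constitutive form, was higher in tumour Treg than in tumour Teff by 0.70 (adjusted p = 0.000649) and than in spleen Treg by 0.34 (adjusted p = 0.0254). The latter call ended without any 1 of the 4 Treg arrays (adjusted p = 0.0833 to 0.119), and a dimmer Hk1 probe set (1420901_a_at), tested on its own, was lower in spleen Treg than in spleen Teff (-0.44, adjusted p = 0.0227).

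Gpi1, which isomerises glucose 6-phosphate, was higher in tumour Treg than in tumour Teff by 0.43 (adjusted p = 0.0066) and than in spleen Treg by 0.54 (adjusted p = 0.00239). The former call ended without tumour Treg array 1 (adjusted p = 0.0512). Phosphofructokinase, which commits sugar to glycolysis, is built from the products of Pfkl, Pfkm and Pfkp, the liver, muscle and platelet forms. Pfkl rose from spleen to tumour by 1.34 in Treg (adjusted p = 0.000242) and by 0.69 in Teff (adjusted p = 0.0107), and was higher in tumour Treg than in tumour Teff by 0.95 (adjusted p = 0.00124). Pfkm was higher in tumour Treg than in tumour Teff by 0.48 (adjusted p = 0.00629) and than in spleen Treg by 0.35 (adjusted p = 0.0272). Pfkp rose from spleen to tumour in Treg by 0.71 (adjusted p = 0.00138), and read 0.31 higher in tumour Treg than in tumour Teff (adjusted p = 0.0553). None of the 3 passed between Treg and Teff in DT mice (0.40, -0.17 and -0.05) or in spleen (0.30, 0.09 and -0.10). The call of Pfkm between tissues ended without tumour Treg array 1 or 2 or spleen Treg array 2 (adjusted p = 0.114, 0.0988 and 0.125). That of Pfkl in Teff ended without tumour Teff array 1 or spleen Teff array 1 or 2 (adjusted p = 0.063, 0.0539 and 0.0725).

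Aldolase, which splits the phosphorylated sugar, was represented by Aldoa and Aldoc, with different patterns. Aldoc (1451461_a_at), best known from brain, read 8.3, 8.51, 8.42, 8.06 and 8.69 in DT Treg and 6.65, 6.55, 7.05, 6.31 and 7.44 in DT Teff. It read 9.18 and 9.07 in tumour Treg, 7.62 and 7.03 in tumour Teff, 6.81 and 6.74 in spleen Treg, and 5.19 and 5.6 in spleen Teff, the last below the median of every array. No groups overlapped, and Aldoc was higher in Treg in all 3 settings: by 1.60 (SE 0.196, adjusted p = 0.000139), 1.38 (SE 0.198, adjusted p = 0.0025; 0.0754 with the mean of its probe sets) and 1.80 (adjusted p = 0.000336). It also rose in the tumour, by 2.35 in Treg and 1.93 in Teff (adjusted p = 9.81e-05 and 0.000738).

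Aldoa (1416921_x_at), the muscle form made by most cells, read 12.57 and 12.49 in tumour Treg, 11.63 and 11.74 in tumour Teff, 11.07 and 10.97 in spleen Treg, and 11.12 and 11.05 in spleen Teff. The tumour arrays lay above the spleen arrays, and Treg above Teff in the tumour alone of these tissues. It rose from spleen to tumour by 1.51 in Treg (adjusted p = 1.66e-05) and 0.60 in Teff (adjusted p = 0.00334), and its interaction passed (0.91, SE 0.125, adjusted p = 0.00543). In DT mice the arrays overlapped (11.29 to 11.57 in Treg, 10.95 to 11.68 in Teff).

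Tpi1 (1415918_a_at), which interconverts the triose phosphates, read 10.82, 10.92, 11.18, 11.04 and 11 in DT Treg and 9.62, 9.63, 10.24, 9.45 and 10.42 in DT Teff. It read 11.44 and 11.27 in tumour Treg, 10.04 and 9.83 in tumour Teff, 9.41 and 9.31 in spleen Treg, and 8.52 and 8.49 in spleen Teff. No groups overlapped in any setting. It was higher in Treg by 1.12 in DT mice (adjusted p = 0.00105), 0.86 in spleen (adjusted p = 0.00102) and 1.42 in the tumour (adjusted p = 4.04e-05), and rose in the tumour by 2.0 in Treg and 1.43 in Teff (adjusted p = 1.07e-05 and 0.000134).

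Gapdh, often used as a reference gene, was read here from a control probe set of the array (AFFX-GapdhMur/M32599_3_at). It read 13.06, 13.1, 13.19, 13.05 and 13.17 in DT Treg and 12.5, 12.66, 12.28, 12.45 and 12.5 in DT Teff, and 13.12 and 13.01 in tumour Treg against 12.19 and 12.13 in tumour Teff. Treg arrays lay above Teff arrays in both settings, by 0.64 (adjusted p = 0.000723) and 0.90 (adjusted p = 0.000169). In spleen, Treg read 12.24 and 12.12 and Teff 11.89 and 11.84; this difference of 0.32 (adjusted p = 0.0475) lost its call without any 1 of the 8 arrays (adjusted p = 0.0609 to 0.216). That spleen call was also lost in 4 other alternatives (limma, adjusted p = 0.0532 to 0.0882), among them the mean of its probe sets. The 3′ minus 5′ difference of Gapdh, a measure of RNA integrity, ran from -0.18 to 0.26 in DT Treg and 0.06 to 0.28 in DT Teff. It ran from 0.08 to 0.30 on the other arrays. For Actb, a second control gene, it was 0.25 to 0.42 in DT Treg, 0.42 to 0.56 in DT Teff and 0.38 to 0.63 on the other arrays. The part of RNA integrity in the differences between groups was not tested.

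**Figure D3:**
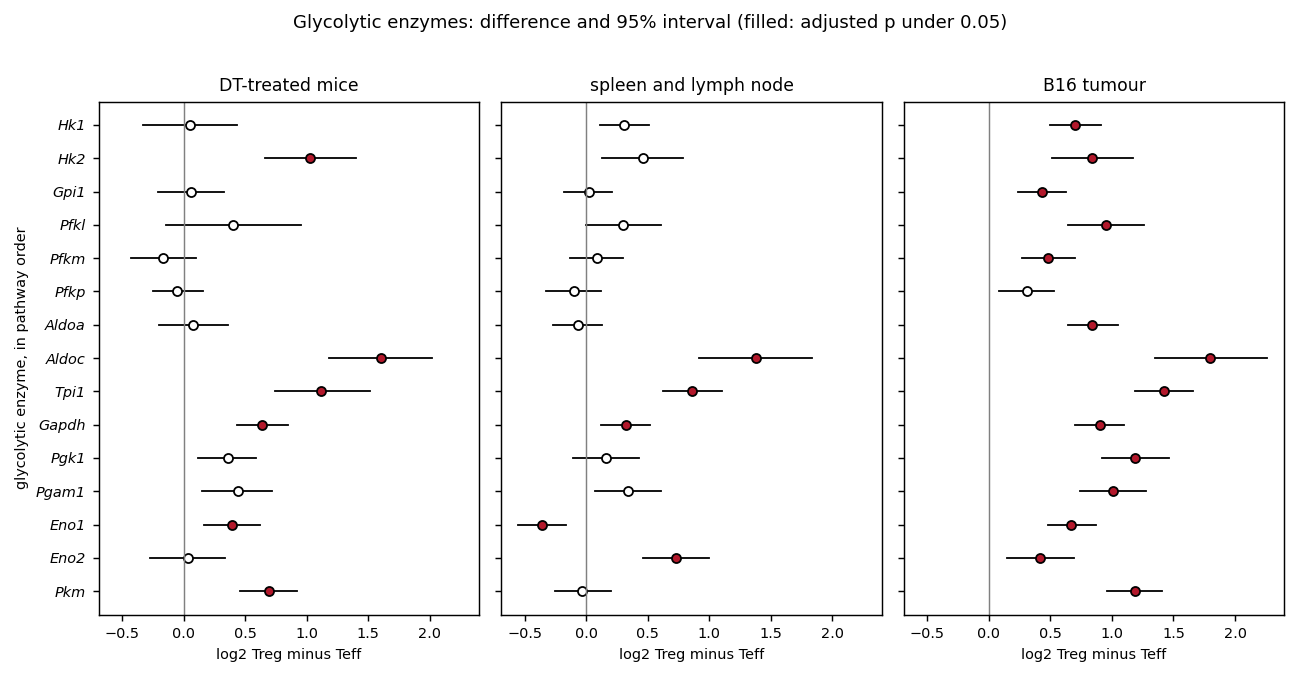
Log2 difference, Treg minus Teff, of the 15 glycolytic enzymes in pathway order in DT mice, spleen and tumour (1 panel each), with 95% intervals and filled points where adjusted p is under 0.05. In the tumour 14 of the 15 are filled and above 0, against 6 in DT mice and 4 in spleen.

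The later enzymes of the pathway were also higher in tumour Treg. Pgk1 (1417864_at, X-linked), which makes the first ATP of the pathway, read 12.04 and 11.75 in tumour Treg, 10.81 and 10.6 in tumour Teff, 10.33 and 10.28 in spleen Treg, and 10.15 and 10.14 in spleen Teff. Tumour Treg stood apart, 1.19 above tumour Teff (SE 0.117, adjusted p = 0.000188) and 1.59 above spleen Treg (adjusted p = 4.8e-05), and the interaction was 1.03 (adjusted p = 0.0109). Tumour Teff was 0.56 above spleen Teff (adjusted p = 0.0148), a call that ended without tumour Teff array 1 or spleen Teff array 1 or 2 (adjusted p = 0.0828, 0.079 and 0.0824). In DT mice Pgk1 read 0.36 higher in Treg and missed the threshold (adjusted p = 0.0567).

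Pgam1 (1426554_a_at), the mutase of the next step, read 10.23 and 9.9 in tumour Treg, 9.09 and 9.02 in tumour Teff, 8.82 and 8.7 in spleen Treg, and 8.38 and 8.46 in spleen Teff. It was higher in tumour Treg than in tumour Teff by 1.01 (adjusted p = 0.000465) and than in spleen Treg by 1.31 (adjusted p = 0.000146). It rose in Teff by 0.63 (adjusted p = 0.00933; 0.0671 without spleen Teff array 1). Its differences in DT mice (0.44, adjusted p = 0.0544) and spleen (0.34, adjusted p = 0.106) and its interaction (0.67, adjusted p = 0.0582) did not pass.

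Enolase was represented by Eno1, the common form, and Eno2, the neuronal form. Eno1 (1419023_x_at) changed direction with the setting: it read 11.99 and 11.95 in tumour Treg against 11.32 and 11.27 in tumour Teff, but 10.67 and 10.54 in spleen Treg against 10.99 and 10.93 in spleen Teff. The groups did not overlap, and Eno1 was higher in Treg in the tumour by 0.67 (adjusted p = 0.00068) and lower in spleen (-0.36, adjusted p = 0.0264), with an interaction of 1.03 (SE 0.12, adjusted p = 0.00292). The spleen call ended without spleen Teff array 1 or 2 or spleen Treg array 2 (adjusted p = 0.147, 0.0991 and 0.123). In DT mice Eno1 was higher by 0.39 (adjusted p = 0.029), a call lost without any 1 of 7 arrays (adjusted p up to 0.0805). It rose in the tumour by 1.36 in Treg (adjusted p = 2.17e-05) and by 0.33 in Teff (adjusted p = 0.0324), the latter call being lost without any 1 of 6 arrays (adjusted p up to 0.164). Eno2 lay below the median of every array in all 6 groups, at 3.42 and 3.51 in tumour Treg and 3.57 and 3.87 in spleen Treg against 2.94 to 3.13 in Teff of both tissues. At that low level it was higher in Treg in spleen (0.73, adjusted p = 0.00434) and tumour (0.42, adjusted p = 0.0326; lost without any 1 of 5 arrays, adjusted p up to 0.159), and it did not pass in DT mice (0.04).

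Pkm (1417308_at), pyruvate kinase, which ends the pathway, read 10.51, 10.56, 10.57, 10.49 and 10.71 in DT Treg and 9.89, 10.17, 9.72, 9.71 and 9.91 in DT Teff. It read 10.34 and 10.36 in tumour Treg, 9.28 and 9.05 in tumour Teff, 8.94 and 8.96 in spleen Treg, and 9.01 and 8.94 in spleen Teff. Treg exceeded Teff without overlap in DT mice (0.69, adjusted p = 0.000971) and in the tumour (1.19, adjusted p = 7.14e-05), while the spleen arrays overlapped (-0.03, 95% interval -0.25 to 0.20). Its interaction, 1.21 (SE 0.137, adjusted p = 0.00266), was the largest of the 15 enzymes, and from spleen to tumour it rose in Treg by 1.4 (adjusted p = 3.69e-05) and read 0.19 higher in Teff (adjusted p = 0.249). The probe set does not part the 2 splice forms of the gene.

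Pfkfb3 and Pfkfb4 set the level of fructose-2,6-bisphosphate, an activator of phosphofructokinase. Pfkfb4 (1456888_at) was lower in DT Treg, at 4.58, 5.27, 4.81, 4.42 and 4.9 against 5.49, 5.4, 5.42, 5.22 and 5.48 in DT Teff. Only DT Treg array 2 reached into the range of Teff, and the difference was -0.61 (SE 0.146, adjusted p = 0.0167; 0.0523 without DT Treg array 1). Pfkfb3 (1416432_at), whose product mainly makes the activator, rose from spleen to tumour in Treg by 0.39 (adjusted p = 0.0202) and passed nowhere else, with 0.29 between tumour Treg and tumour Teff (adjusted p = 0.0604) and -0.22 in DT mice (adjusted p = 0.311). This call ended without tumour Treg array 1 or 2 or spleen Treg array 2 (adjusted p = 0.0765, 0.0965 and 0.0995), as it did when its probe sets were averaged (0.595).

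Pyruvate can be reduced to lactate or oxidised, and Ldha and Slc16a3 act on the way to lactate. Ldha (1419737_a_at), the lactate dehydrogenase subunit that favours lactate, read 12.26 and 12.17 in tumour Treg, 11.39 and 11.41 in tumour Teff, 11.18 and 11.06 in spleen Treg, and 11.09 and 11.05 in spleen Teff. Tumour Treg stood above the rest: Ldha was higher by 0.81 than in tumour Teff (adjusted p = 0.000243) and by 1.09 than in spleen Treg (adjusted p = 6.17e-05), with an interaction of 0.77 (adjusted p = 0.00926). In spleen Treg and Teff differed by 0.05 (adjusted p = 0.795). The rise in Teff, 0.33 (adjusted p = 0.0355), was lost without any 1 of 6 arrays (adjusted p up to 0.164). In DT mice Treg read 12.3 to 12.49 and Teff 11.84 to 12.23; this difference, 0.34 (adjusted p = 0.0463), was lost without any 1 of 9 arrays (adjusted p up to 0.13).

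Slc16a3 (1449005_at), the lactate exporter MCT4, was dim but orderly. It read 4.02, 4.2, 4.03, 3.78 and 4.3 in DT Treg and 2.85, 2.94, 3.16, 2.71 and 3.12 in DT Teff, the latter below the median of every array. It read 5.18 and 5.27 in tumour Treg, 3.82 and 3.67 in tumour Teff, 4.07 and 4.14 in spleen Treg, and 3.52 and 3.27 in spleen Teff, all below the median of every array. Treg arrays lay above Teff arrays in each setting, by 1.11 (adjusted p = 7.62e-05), 0.71 (adjusted p = 0.00324) and 1.48 (adjusted p = 4.03e-05), and it rose in the tumour in Treg by 1.12 (adjusted p = 0.000203). The interaction, 0.77 (adjusted p = 0.0248), was lost without any 1 of 6 arrays (adjusted p up to 0.0834).

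The 2 pyruvate dehydrogenase kinases, which hold pyruvate back from oxidation, went in opposite directions. Pdk1 (1423747_a_at), a known HIF-1 target, read 8.7, 8.66, 8.51, 8.03 and 8.49 in DT Treg and 9.61, 10, 9.66, 9.7 and 9.09 in DT Teff. It read 8.76 and 8.98 in spleen Treg, 10.11 and 10.49 in spleen Teff, 8.79 and 8.43 in tumour Treg, and 9.58 and 9.54 in tumour Teff. Every Treg array lay below every Teff array of its setting, with differences of -1.13 (SE 0.17, adjusted p = 0.00068), -1.43 (SE 0.159, adjusted p = 0.000681) and -0.95 (adjusted p = 0.00294). In the tumour Pdk1 was lower in Teff (-0.74, adjusted p = 0.017), a call lost without tumour Teff array 1 or 2 or spleen Teff array 2 (adjusted p = 0.0633, 0.0716 and 0.11), and it did not pass in Treg (-0.26). Its 4 probe sets in the DT table all read lower in Treg, from -0.91 to -1.47.

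Pdk3 (1426410_at, X-linked) was higher in Treg by 0.51 in DT mice (adjusted p = 0.0365), 0.64 in spleen (adjusted p = 0.00469) and 0.68 in the tumour (adjusted p = 0.00193). It read 8.1 and 7.86 in spleen Treg and 8.08 and 8.03 in tumour Treg, against 7.41 and 7.28 in spleen Teff and 7.41 and 7.34 in tumour Teff. The differences between tissues did not pass (0.07 in Treg, 95% interval -0.17 to 0.31; 0.03 in Teff, 95% interval -0.21 to 0.27). The DT call was lost without any 1 of 6 arrays (adjusted p up to 0.0903).

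Among the oxygen sensing genes, Hif1a (1427418_a_at), which encodes HIF-1α, followed the tissue at the level of RNA. It read 12.82 and 12.68 in tumour Treg, 12.47 and 12.4 in tumour Teff, 12.11 and 12.32 in spleen Treg, and 11.6 and 11.5 in spleen Teff. All tumour arrays lay above all spleen arrays, with rises of 0.54 in Treg (adjusted p = 0.00612) and 0.88 in Teff (adjusted p = 0.00114). It was higher in spleen Treg than in spleen Teff by 0.67 (adjusted p = 0.0033), and missed the threshold in the tumour (0.32, adjusted p = 0.0522) and in DT mice (0.26, adjusted p = 0.444).

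Egln1 and Egln3 encode prolyl hydroxylases that mark HIF-1α, and are themselves known to rise in low oxygen. Egln1 (1423785_at) was lower in DT Treg, at 8.54, 8.55, 8.37, 7.93 and 8.42 against 8.82, 9.01, 8.87, 8.74 and 8.86 in DT Teff (-0.50, adjusted p = 0.0221). In the tumour the order turned, at 9.23 and 9.13 in Treg against 8.79 and 8.89 in Teff (0.34, adjusted p = 0.0243), while spleen Treg read 8.31 and 8.18 and spleen Teff 8.48 and 8.44. No groups overlapped, and Egln1 rose in the tumour by 0.93 in Treg (adjusted p = 0.0002) and 0.38 in Teff (adjusted p = 0.0244). The DT call ended without DT Teff array 2 or DT Treg array 3 (adjusted p = 0.0642 and 0.0537), as it did when its probe sets were averaged (0.211). The tumour call ended without tumour Teff array 1 or tumour Treg array 1 or 2 (adjusted p = 0.121, 0.137 and 0.0569), and the rise in Teff without tumour Teff array 2 or spleen Teff array 1 or 2 (adjusted p = 0.11, 0.102 and 0.125). Its interaction, 0.55 (adjusted p = 0.0433), was lost without any 1 of the 8 arrays (adjusted p up to 0.144) and when its probe sets were averaged (0.0713).

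Egln3 (1418649_at) rose in the tumour by 1.27 in Treg (adjusted p = 0.00404) and by 1.02 in Teff (adjusted p = 0.017). It read 8.03 and 7.5 in tumour Treg, 6.77 and 7.2 in tumour Teff, 6.39 and 6.6 in spleen Treg, and 5.76 and 6.18 in spleen Teff, a wider spread than for most members. Tumour Treg exceeded tumour Teff by 0.78 (adjusted p = 0.0326), a call lost without tumour Teff array 1 or tumour Treg array 1 (adjusted p = 0.175 and 0.192). The rise in Teff was lost without tumour Teff array 2 or spleen Teff array 1 (adjusted p = 0.09 and 0.115). In DT mice it missed the threshold (-0.41, adjusted p = 0.122), and its other probe set there (1418648_at), tested on its own, was lower by more (-0.68, adjusted p = 0.022).

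Of the 10 other hypoxia genes, 4 were higher in Treg in DT mice, 3 in spleen and 6 in the tumour. Bnip3 (1422470_at), a mitochondrial protein of mitophagy and cell death, read 9.98 and 9.35 in tumour Treg, 8.09 and 8.01 in tumour Teff, 7.26 and 6.93 in spleen Treg, and 6.46 and 6.63 in spleen Teff. It rose in the tumour by 2.57 in Treg (SE 0.197, adjusted p = 5.98e-05), a 5.93-fold change, and by 1.5 in Teff (adjusted p = 0.00194). Treg exceeded Teff in the tumour by 1.62 (adjusted p = 0.000583) and in DT mice by 1.15 (adjusted p = 0.000279), where Treg read 7.14 to 7.76 and Teff 6.09 to 6.83. Its interaction, 1.06, missed the threshold (adjusted p = 0.0711). Bnip3l, its relative in mitophagy, passed in no comparison, and its differences ran from -0.08 to 0.18.

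Ddit4 (1428306_at), which restrains mTORC1 under stress, was high in 1 of the 4 Foxp3GFP groups. It read 10.75 and 10.64 in tumour Treg, 8.66 and 8.34 in tumour Teff, 8.6 and 8.77 in spleen Treg, and 8.58 and 8.32 in spleen Teff. Tumour Teff overlapped with both spleen groups, spleen Treg lay just above spleen Teff, and tumour Treg exceeded tumour Teff by 2.20 (SE 0.137, adjusted p = 1.94e-05) and spleen Treg by 2.01 (adjusted p = 3.51e-05). The interaction was 1.96 (SE 0.194, adjusted p = 0.00174), and tumour and spleen Teff differed by 0.05 (95% interval -0.27 to 0.37). In DT mice the order was the other way without passing (-0.57, adjusted p = 0.0858).

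P4ha1 (1452094_at), a subunit of the collagen prolyl 4-hydroxylase, was higher in Treg in all 3 settings and differed most in DT mice. It read 8.13, 8.16, 8.4, 8.17 and 8.14 in DT Treg and 6.7, 6.46, 6.83, 6.51 and 6.23 in DT Teff (1.65, SE 0.122, adjusted p = 2.01e-06). In spleen Treg it read 8.86 and 8.56 against 8.16 and 7.78 in Teff (0.74, adjusted p = 0.011), and in tumour Treg 8.71 and 8.67 against 8.16 and 8.11 (0.55, adjusted p = 0.0232). No groups overlapped between Treg and Teff, and the differences between tissues did not pass (-0.02 in Treg, 0.17 in Teff). The spleen call ended without spleen Teff array 2 or spleen Treg array 1 (adjusted p = 0.0732 and 0.072), and the tumour call without any 1 of the 4 tumour arrays (adjusted p = 0.0734 to 0.101). With the mean of its probe sets the spleen call of P4ha1 also ended (limma, adjusted p = 0.0553). P4ha2, the other catalytic form, lay below the median of every array in all groups and passed nowhere.

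Ndrg1 (1420760_s_at), a stress-responsive gene of T cell tolerance, read 9.17 and 8.92 in tumour Treg, 7.5 and 7.42 in tumour Teff, 7.65 and 7.66 in spleen Treg, and 6.82 and 6.93 in spleen Teff. Treg lay above Teff by 1.59 in the tumour (adjusted p = 2.2e-05) and 0.78 in spleen (adjusted p = 0.00158), and the rises in the tumour were 1.4 in Treg (adjusted p = 4.75e-05) and 0.58 in Teff (adjusted p = 0.0072; 0.0596 without spleen Teff array 1). The interaction, 0.81 (adjusted p = 0.0165), ended without tumour Treg array 1, spleen Teff array 2 or spleen Treg array 1 or 2 (adjusted p = 0.0502, 0.0746, 0.0515 and 0.056). In DT mice Ndrg1 was higher in Treg by 0.68 (adjusted p = 0.0248), although DT Teff array 5, at 8.28, reached into the Treg range of 7.99 to 8.63. That call was lost without any 1 of 7 arrays (adjusted p up to 0.072).

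Mxi1 (1450376_at), an antagonist of Myc, was higher in Treg in all 3 settings, by 0.72 (adjusted p = 0.00104), 0.69 (adjusted p = 0.0057) and 0.95 (adjusted p = 0.000642). It read 8.95 and 8.96 in tumour Treg, 7.82 and 8.19 in tumour Teff, 8.0 and 7.98 in spleen Treg, and 7.28 and 7.32 in spleen Teff. The rises in the tumour were 0.96 in Treg and 0.71 in Teff (adjusted p = 0.00068 and 0.00572). Higd1a (1416481_s_at), a mitochondrial protein, lay below the median of every array in the Foxp3GFP groups, at 5.85 and 5.78 in tumour Treg and 5.18 to 5.42 in the other 3. It was higher in tumour Treg than in tumour Teff by 0.56 (adjusted p = 0.00153), with an interaction of 0.73 (adjusted p = 0.00999; 0.0996 with the mean of its probe sets). Vegfa, the angiogenic factor, and Adm, the vasodilator adrenomedullin, are classical HIF targets and passed nowhere. Vegfa read 3.62 to 3.98 in the Foxp3GFP groups, below the median of every array, and Adm from 4.0 to 5.59, with the pair of tumour Teff arrays at 5.59 and 4.29.

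The interaction asked whether the difference between Treg and Teff was unequal in tumour and spleen. It passed for Aldoa, Gapdh, Pgk1, Eno1, Pkm, Ldha, Slc16a3, Egln1, Ddit4, Ndrg1 and Higd1a. Their values ran from 0.55 for Egln1 to 1.96 for Ddit4. It was above 0 for 30 of 35 members, passing or not, where its median over all genes was 0.01. Of the 11 calls, 7 were kept without any 1 array (Aldoa, Pgk1, Eno1, Pkm, Ldha, Ddit4 and Higd1a); those of Gapdh (0.59, adjusted p = 0.0306; lost without any 1 of 7 arrays, adjusted p up to 0.116), Slc16a3, Egln1 and Ndrg1 were not. By contrast Aldoc and Tpi1, which rose in the tumour by over 1 log2 unit in both cell types, had interactions of 0.43 and 0.57 that did not pass (adjusted p = 0.475 and 0.0686).

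**Figure D4:**
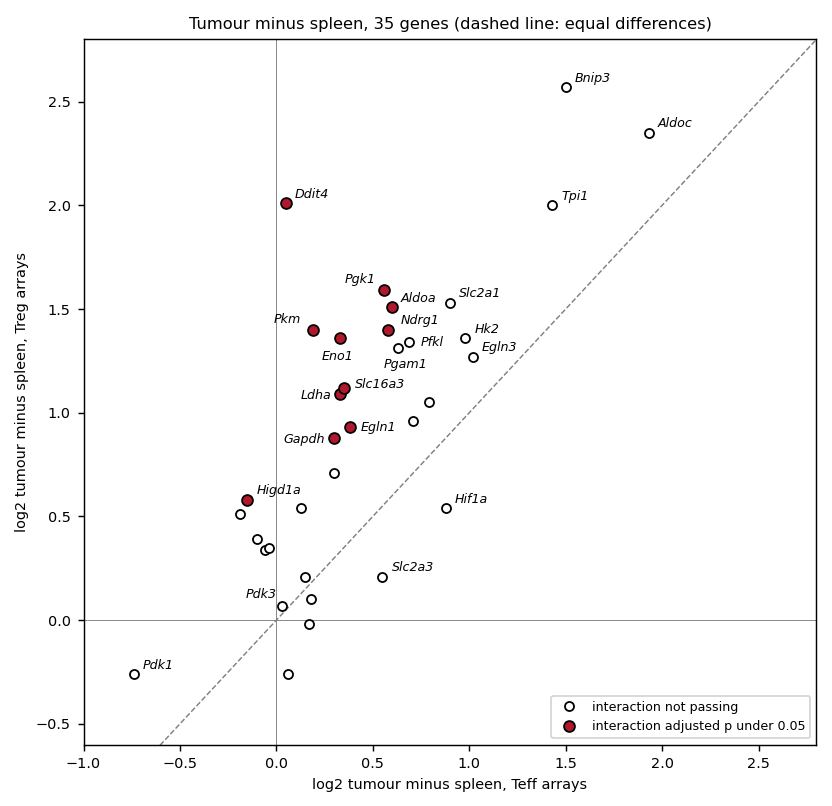
Log2 difference, tumour minus spleen, in Treg (1 axis) and in Teff (the other axis) for 35 genes. Red points passed the interaction test and the dashed line marks equal differences. The 11 red points lie on the side of the larger difference in Treg, with Ddit4 (2.01 in Treg, 0.05 in Teff) farthest from the line.

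Other genes of the same pathways were counted in 5 further lists, and the lists were not tested against the members. Of all genes, 5.96% were higher and 4.56% lower in DT Treg than in DT Teff. In spleen the shares were 7.45% and 6.41%, and in the tumour 14% and 11.5%. From spleen to tumour 11.4% of all genes rose and 12.2% fell in Treg, and 7.6% rose and 8.2% fell in Teff. Several counts below lie near these shares. Of further glycolysis and glycogen genes, 3 were higher and 1 lower of 23 in DT Treg, with muscle enolase Eno3 higher by 1.33 (adjusted p = 4.49e-05) and Bpgm, which diverts an intermediate, lower (-0.56). In spleen 2 of 20 were higher, led by Galm, which converts sugar anomers (1.25), and in tumour Treg against tumour Teff 10 of 20 were higher and 2 lower. There Pygl, a glycogen phosphorylase, was higher by 1.0 (adjusted p = 0.000682) and the mutase Pgam2 lower (-2.13, adjusted p = 7.1e-05). Pygl rose from spleen to tumour by 2.06 in Treg and 1.25 in Teff, where 3 of 20 genes rose and 2 fell in Treg, and 2 rose and 0 fell in Teff (3 lower at an unadjusted p under 0.05, by limma).

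Genes of pyruvate oxidation were mostly not called: 1 of 15 was higher in DT Treg, 1 higher and 1 lower of 12 in spleen, and in the tumour 1 was lower and 0 higher (1 at an unadjusted p under 0.05). Slc16a1, the lactate carrier MCT1, was lower in spleen Treg than in spleen Teff (-0.54, adjusted p = 0.00763), unlike Slc16a3. In the pentose phosphate pathway, G6pdx, its entry enzyme, was higher by 0.58 and Tkt by 0.68 in DT Treg, the 2 of 8 that passed, and in the tumour 3 were higher and 1 lower. Among oxygen sensing regulators 3 of 15 were lower in DT Treg and 0 higher (1 at an unadjusted p under 0.05): Epas1, which encodes HIF-2α (-2.05, adjusted p = 1.77e-05), Txnip, an inhibitor of glucose uptake (-0.52), and Siah1a (-0.48). Txnip was also lower in tumour Treg than in tumour Teff (-0.92, adjusted p = 0.000915). Myc, a driver of glycolytic genes, was lower in the tumour than in spleen in Treg (-0.94, adjusted p = 0.000344) and in Teff (-0.70, adjusted p = 0.00293).

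Of 24 or 25 further hypoxia targets, 2 were higher and 2 lower in DT Treg, 2 higher in spleen Treg, and 5 higher and 1 lower in tumour Treg against Teff. In DT mice 8.0% were thus higher and 8.0% lower, beside 5.96% and 4.56% of all genes. In spleen 8.33% were higher, beside 7.45% of all genes. Ero1a, an oxidase of the endoplasmic reticulum, was higher in tumour Treg than in tumour Teff by 1.32 (adjusted p = 3.58e-05) and rose from spleen to tumour by 1.89 in Treg, with an interaction of 1.34 (adjusted p = 0.00174). In DT Treg, Ier3 (-2.40) and Bhlhe40 (-1.10) were lower than in Teff and Tfrc, the transferrin receptor, was higher (0.95). From spleen to tumour 8 rose and 2 fell in Treg, led by Plod2, a lysyl hydroxylase of collagen (2.48), and 6 rose and 1 fell in Teff.

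Genes of the cell cycle moved with the members between Treg and Teff. Of 20, 17 were higher in DT Treg, 12 in spleen Treg and 16 in tumour Treg, with medians of 1.36, 0.54 and 0.95; by limma 0 were lower, also at an unadjusted p under 0.05. From spleen to tumour 10 rose and 2 fell in Treg, and 2 rose and 3 fell in Teff; in the interaction 2 passed, both above 0. The median deviation of the members from their means over the arrays of a table was 0.80 and 0.69 on the tumour Treg arrays, -0.03 and -0.05 on tumour Teff, -0.26 and -0.25 on spleen Treg, and -0.41 and -0.53 on spleen Teff. For cell cycle genes it was 0.61 and 0.54, -0.41 and -0.32, 0.23 and 0.11, and -0.35 and -0.45. Thus spleen Treg lay above tumour Teff for cell cycle genes and below it for the members. On the DT arrays the members' median deviation was 0.08 to 0.21 in Treg and -0.41 to 0.04 in Teff, with array 4 the lowest in each. The part of proliferation in the members' differences was not tested.

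**Figure D5:**
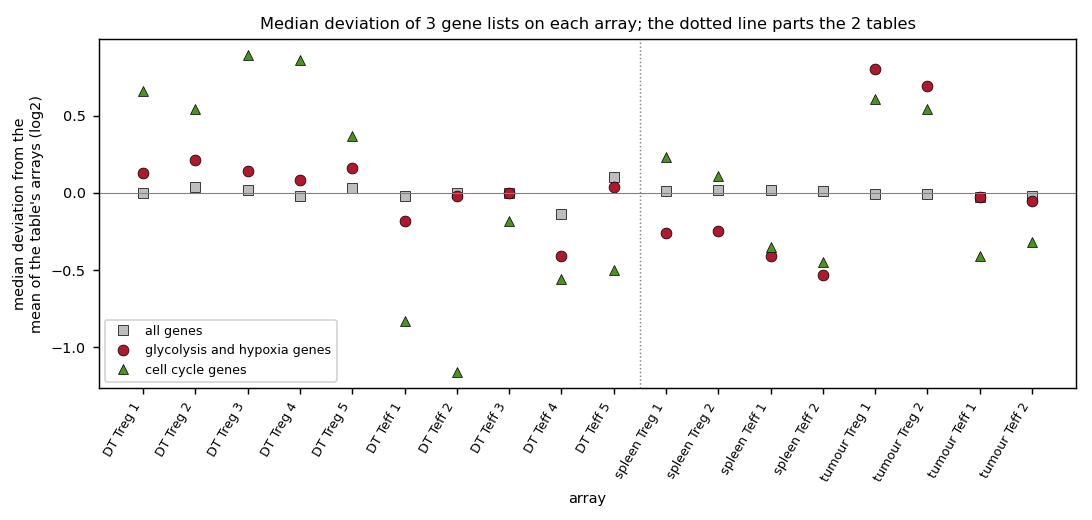
Median deviation (log2) of the members, the 20 cell cycle genes and all genes from their means over the arrays of a table, for each of the 18 arrays by group. The members are highest on the tumour Treg arrays (0.80 and 0.69), and all genes stay between -0.14 and 0.10.

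Markers of other cells moved with tissue and cell type too. Of 6 melanoma markers, 5 were higher in the tumour in Treg and 5 in Teff, with summed levels of 44.0 to 46.5 and 41.9 to 46.3 on tumour arrays against 28.1 to 28.7 and 28.9 to 29.1 on spleen arrays. Between tumour Treg and tumour Teff 0 of 6 passed in either direction by limma, also at an unadjusted p under 0.05, with a median difference of 0.18 and all 6 above 0. Of 6 stromal and endothelial markers, 5 were higher in the tumour in each cell type, summing to 35.6 to 41.6 in tumour Treg and 39.6 to 44.1 in tumour Teff against 29.1 to 30.7 in spleen. Plasmacytoid dendritic cell markers were lower in tumour Treg than in tumour Teff (5 of 5, sums 31.4 to 33.6 against 48.3 to 53.1), as were both CD8 markers (sums 11.7 to 12.0 against 13.9 to 15.6). From spleen to tumour in Teff, 5 of 5 plasmacytoid dendritic cell markers (median 2.18), 2 of 2 CD8 markers, 4 of 8 myeloid and 2 of 4 NK cell markers rose, and 2 myeloid markers fell. In Treg, 3 of 5 B cell, 3 of 8 myeloid and 2 of 5 plasmacytoid dendritic cell markers fell from spleen to tumour, and 1 myeloid, 1 plasmacytoid dendritic cell and 1 of 4 NK cell markers rose. Erythroid Hba-a1 reached 8.37 on DT Treg array 4 and 7.37 on DT Teff array 4, against 3.21 to 4.44 on the other DT arrays. Between spleen Treg and Teff, 3 of 5 plasmacytoid dendritic cell and 2 of 4 NK cell markers were lower in Treg and 0 higher. Of 8 myeloid markers, 1 was lower and 2 higher there. In DT Treg, 2 of 4 NK cell markers were lower and 0 higher than in DT Teff. Myeloid markers there were 2 lower and 1 higher, and plasmacytoid dendritic cell markers 2 lower and 2 higher. In tumour Treg against Teff, 3 of 8 myeloid markers were lower and 1 higher. The part of these cells in the members' differences was not tested.

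Many members were read by more than 1 probe set, 80 probe sets in the larger table and 72 in the smaller. Tested one by one, no member had probe sets called in both directions in the same comparison. In the tumour 54 of 72 were higher in Treg and 2 lower, and from spleen to tumour 56 of 72 rose in Treg. Of all 22690 probe sets of that table, 5295 and 4900 were called in these comparisons, in either direction. Probe sets of the same gene are not separate results. A second Slc2a1 probe set (1426600_at) passed the interaction (0.71, adjusted p = 0.0443), and a second Vegfa probe set (1420909_at) rose from spleen to tumour in Treg (0.61, adjusted p = 0.0306). For Higd1a a probe set tied to the gene by accession only (1416480_a_at) was higher in tumour Treg than in tumour Teff by 0.74 (adjusted p = 0.00167), with an interaction of 0.82 (adjusted p = 0.0215).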

How the data were processed

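Total RNA of sorted CD4 T cells was hybridised to Affymetrix arrays. The authors' deposited values are on the log2 scale; RMA made them, per the submitters' processing notes, which give no version. They form 1 table of 10 arrays (45101 probe sets, array medians 4.05 to 4.14) and 1 of 8 arrays (22690 probe sets, medians 5.87 to 5.9), used as deposited. A further annotated table gave gene names; its 16 value columns that matched no sample were not used.

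Each gene was read from the probe set whose mean across its table's arrays was highest. Names were updated through the RefSeq table of GRCm38.p6, which also gave the promoters. Of the members, 33 of 36 matched a promoter window. Groups, taken from the titles, were compared with limma 3.58.1 (lmFit, eBayes) in R 4.3.3, with p-values adjusted by Benjamini and Hochberg's method across every gene fitted and called under 0.05. The DT groups were fitted alone and the 4 Foxp3GFP groups together, with 5 contrasts. The procedure was tested on simulated data. Tables and figures used Python 3.11.15, pandas 2.3.3 and matplotlib 3.10.9.

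Members and lists were chosen with earlier results of these data known. Every member was to be accounted for, with at most 8 rises and 8 falls per comparison in full, paralogues side by side, and at most 3 rises and 3 falls of each other list. Where roles are described gene by gene, further members are given with their values. Alternatives were the mean of a gene's probe sets, each probe set alone, no dim genes, a second quantile normalization, trend and robust variance, array weights, a replicate block, fewer arrays in the fit and each array left out.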

Additional observations from a re-analysis of the deposited data

Results flagged for a closer look

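In the DT groups 72 sets of 5 arrays were searched for an array far from the other 4 (Dixon's test at 95%), and 10 held one; chance gives about 1 in 20. In DT Treg, array 4 was low for Pfkl (6.01), Egln3 (6.8) and Higd1a (4.68) and high for Bnip3l (10.53). Array 3 of DT Treg was high for Ldha (12.49) and P4ha1 (8.4), and array 1 for P4ha2 (3.02). In DT Teff, array 5 was low for Hif1a (10.45) and high for Ndrg1 (8.28), and array 4 was low for Vegfa (3.84). DT Treg array 4 and DT Teff arrays 4 and 5 are also the arrays that correlated least with their own groups.

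For 11 members the difference between Treg and Teff was larger in the tumour than in spleen by the interaction test of limma: Aldoa (0.91), Gapdh (0.59), Pgk1 (1.03), Eno1 (1.03), Pkm (1.21), Ldha (0.77), Slc16a3 (0.77), Egln1 (0.55), Ddit4 (1.96), Ndrg1 (0.81) and Higd1a (0.73). Each group holds 2 arrays, Foxp3 was low in tumour Treg, and melanoma markers were higher on the tumour arrays of both cell types. In the interaction 0 of 6 melanoma markers passed by limma (1 above 0 at an unadjusted p under 0.05). Below 0, 3 of 5 plasmacytoid dendritic cell, 1 of 2 CD8 and 2 of 8 myeloid markers passed. Of B cell and NK cell markers, 1 each passed below 0, and 1 NK cell marker passed above 0. The part of these cells in the 11 differences was not tested.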

How the results depend on the processing

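No called result turned direction under any alternative. Leaving out dim genes, trend and robust variance, and a fit of only the contrast's arrays cannot change a gene's difference or its direction. With each probe set tested alone, a called gene was followed on the same probe set. Hk1 in spleen, not called (0.31), was lower by a second probe set tested alone (-0.44, adjusted p = 0.0227). Of the members' calls, 11 of 17 in DT mice, 9 of 13 in spleen, 23 of 28 in the tumour, 23 of 26 between tissues in Treg, 9 of 18 between tissues in Teff and 6 of 11 in the interaction passed in every alternative. In that order, all genes called numbered 2187, 1834, 3375, 3123, 2091 and 768. With each probe set tested alone, 3049, 2809, 5295, 4900, 3160 and 1149 probe sets were called, of 45101 in DT mice and 22690 in the others. Members' probe sets called higher numbered 22, 18, 54, 56, 32 and 20, of 80 in DT mice and 72 in the others. Those called lower numbered 6, 4, 2 and 3 in DT mice, spleen, tumour and Teff. These counts exceed those of genes because a gene can have several probe sets. Array weights gave 3798 calls in DT mice, and leaving out the 3 DT arrays that stand apart, chosen after seeing the data, gave 3640 with 17 members higher and 4 lower. Trend and robust variance gave 1162 interactions, 17 of them members; the cause was not tested.

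Leaving out 1 array gave 1580 to 3045, 969 to 1880, 2309 to 3332, 2009 to 3180, 970 to 2014 and 359 to 742 calls over all genes. Members higher ranged over 10 to 16, 9 to 12, 22 to 28, 23 to 27, 9 to 17 and 7 to 11, and lower over 2 to 4, 1 to 2, 1 to 1, 0 to 0, 0 to 1 and 0 to 0. The 9 in Teff came without spleen Teff array 1, and the 7 interactions without tumour Treg array 1 or spleen Treg array 2. A group left with 1 array was assumed to vary like the others.

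With the replicate block, genes called numbered 3242, 1696, 3197, 2939, 1860 and 698, members higher 16, 11, 27, 27, 17 and 11, and members lower 4, 3, 1, 0, 1 and 0. The replicate block ended the interaction call of Egln1 (adjusted p = 0.0659) although that count stayed at 11. Arrays of the same number correlated in their deviations at 0.04, 0.23, 0.37, 0.39 and 0.50 in DT mice and at -0.08 to 0.20 in the other groups, and not every array correlated best with its own number, so the numbers were not taken as pairs. With 2 arrays a group, the median standard error was 0.106, and 0.15 for the interaction. In DT mice, with 5 arrays a group, it was 0.134. Small differences could be missed in each of these comparisons.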
